A study of Homo sapiens with 16 samples.

Results

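The cytosolic ribosomal protein genes encode the proteins of the small and large subunits of the ribosome that translates nuclear mRNA. They were taken from the count table by symbol (RPL or RPS followed by a number, with the suffixes A, L and X allowed, and RPLP0 to RPLP2 and RPSA) and by a mean of at least 10 CPM over the 16 libraries. CPM divides a gene's count by the library's total and multiplies it by a fixed power of 10, the same for every gene and library. Of 58243 rows, 80 matched by symbol and 74 of these passed the level. They comprised 44 genes of the large subunit (RPL) and 30 of the small subunit (RPS), and all 74 passed the filter on low counts and were tested.

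The cells were U-251 MG, a glioblastoma line long kept in culture, and the libraries were made from poly(A)-selected RNA. From 24 h after seeding, cells were kept for 48 h with simvastatin at 0.06 µM, irinotecan at 0.6 µM, both drugs at these doses (the combination), or the vehicle DMSO, with 4 libraries in each of the 4 groups. Simvastatin inhibits HMG-CoA reductase, an early enzyme of cholesterol synthesis, and irinotecan is the prodrug of a topoisomerase I poison. In each group the library whose title carries no replicate number is called replicate 4 here. The series compared the drugs alone and together, and nothing in the labels tells whether replicates were grown as separate cultures. P-values may therefore measure technical spread only.

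Each ribosome holds 1 copy of nearly all of these proteins, and the cell makes them in matched amounts. In vertebrates this matching rests largely on translation: most ribosomal protein mRNAs begin with a C followed by an unbroken run of pyrimidines, the 5′ terminal oligopyrimidine (TOP) tract, which the mTORC1 pathway and the binding protein LARP1 use to hold these mRNAs back or release them together. RNA counts do not show such control, since they measure mRNA and not its use. When ribosome assembly is disturbed, free RPL5 and RPL11 bind the p53 regulator MDM2, and many DNA-damaging drugs reduce the making of ribosomal RNA.

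To show the feature that most of the genes share and the selection did not use, the 30 bases around annotated transcription starts are given, with 15 bases before the start and 15 from the start on, 5′ to 3′ on the coding strand. Capitals mark a run that begins with C exactly at the start and goes on with at least 4 bases that are each C or T, searched on the transcribed strand only. The sequences are from RefSeq on GRCh38.p14, and the genes are those that the results below turn on, with RPL3 and RPS26 as starts without such a run.
RPL34, chr4:108620561-108620590, plus strand: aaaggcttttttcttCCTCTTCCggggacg
RPL41, chr12:56116618-56116647, plus strand: cggaacttcgcctttCTCTCggccttagcg
RPL12, chr9:127451392-127451421, minus strand: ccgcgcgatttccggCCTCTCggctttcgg
RPL10, chrX:154398362-154398391, plus strand: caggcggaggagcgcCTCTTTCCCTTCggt
RPLP0, chr12:120201097-120201126, minus strand: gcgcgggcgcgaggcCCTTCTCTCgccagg
RPS6, chr9:19380222-19380251, minus strand: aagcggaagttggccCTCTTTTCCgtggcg
RPL3, chr22:39319609-39319638, minus strand: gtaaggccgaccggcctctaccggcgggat
RPS26, chr12:56041903-56041932, plus strand: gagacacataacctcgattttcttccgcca
The table of starts matched 59 of the 74 genes, with 74 starts. A run was found at a start of 44 of the 59 genes (74.6%). Counted over starts it was present at 59.5% of the 74 starts of these genes and at 4.07% of all 35116 starts in the table. RPL10 has 3 annotated starts and RPL34 has 2, of which only the one shown has a run. A match describes letters at an annotated start, and a start 1 base off hides or makes one.

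Levels of the 74 genes differed far more between genes than between treatments. Per kb of coding length, the mean over the 16 libraries had a median of 800 CPM and ran from 63.9 CPM for RPL26 to 5148 CPM for RPL41. RPL41, whose protein is among the shortest known, was followed by RPLP1 (2960 CPM per kb), which forms the acidic stalk that recruits translation factors, then RPL37A (1905), RPS6 (1559) and RPS27 (1520). The lowest levels per kb after RPL26 were those of RPS15A (96.8), RPS3A (140), RPS26 (172) and RPL23A (199). Coding lengths ran from 75 to 1281 bases with a median of 454.5, and reads from untranslated regions were counted too, so the level per coding length overstates genes with a very short coding part such as RPL41. The 5 genes lowest per kb had 9 (RPL26), 17 (RPS15A), 29 (RPS3A), 23 (RPS26) and 91 (RPL23A) pseudogene rows. RPSA, with 74 rows at 675 CPM per kb, and RPL12, with 50 rows at 1005 CPM per kb, both chosen after their values were seen, had many copies without a low level. Whether reads were lost to or gained from the copies was not tested.

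**Figure D1:**
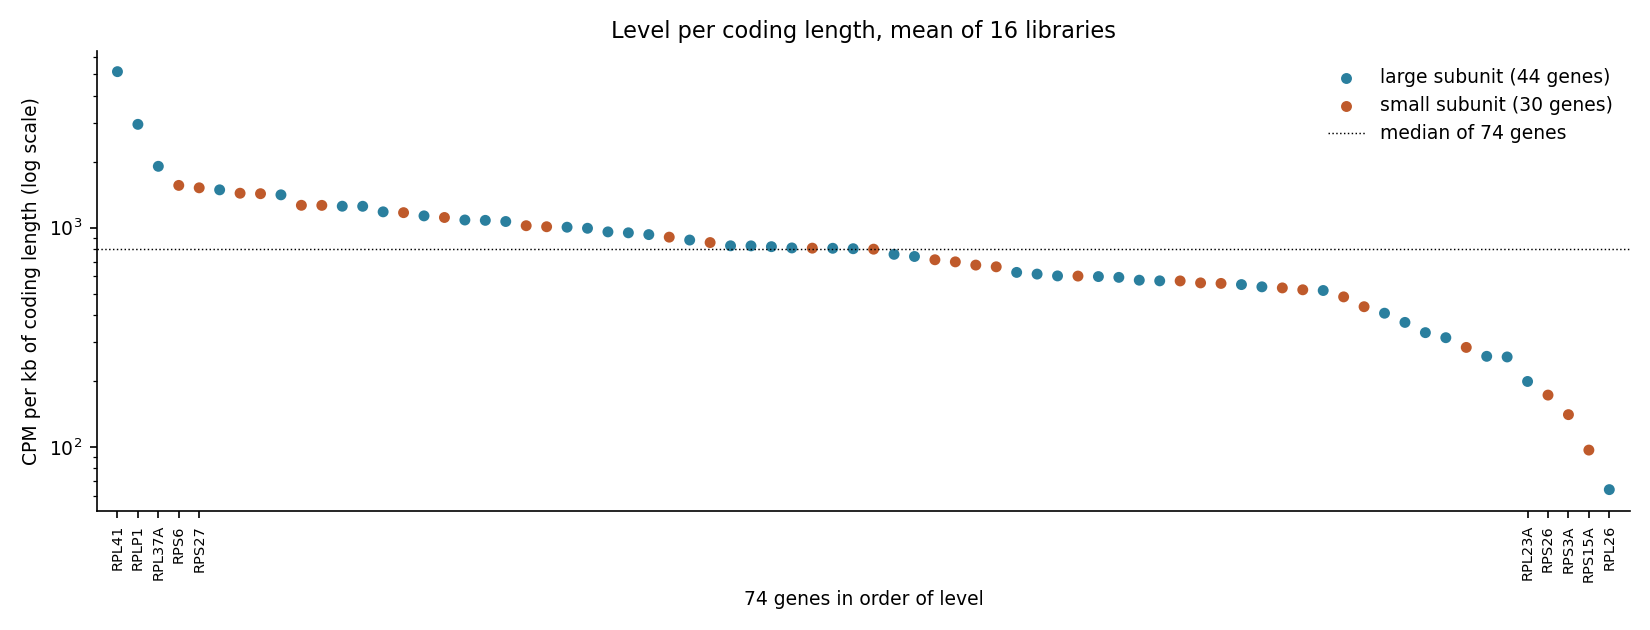
Level of each of the 74 ribosomal protein genes as mean CPM per kb of coding length over 16 libraries (log axis), ordered from the highest to the lowest and named for the 5 at each end, with large subunit genes in blue and small subunit genes in orange. Most genes lie near the median of 800 CPM per kb, RPL41 stands at 5148 and RPL26 at 63.9.

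Library totals were 24159673 to 32318888 counts, and the mitochondrially encoded genes took 2.37% to 4.58% of them. All 8 astroglial markers looked for were present, with medians from 138 CPM for GFAP to 2734 CPM for CD44. CD3E was at 0 in every library, PTPRC reached 0.143 CPM at most, EPCAM 0.0817 CPM and VWF 1.43 CPM. The keratin genes KRT8 and KRT18, markers of epithelia, were present at 205 to 405 CPM and 149.5 to 229 CPM. The summed astroglial markers were at 7247 to 7361 CPM with simvastatin, 5872 to 6033 with irinotecan, 5775 to 5926 with the combination and 7473 to 7726 with DMSO, and the summed epithelial markers at 354 to 386, 573 to 632.5, 497 to 570.1 and 396 to 445 CPM in the same groups. The part of these markers in the results below was not tested.

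The 74 genes took nearly the same share of the counts in every group. They summed to 3.22 ± 0.15% of counts with simvastatin, 3.21 ± 0.16% with irinotecan, 3.23 ± 0.08% with the combination and 3.10 ± 0.14% with DMSO (SD, n = 4 each). By library, the shares were 3.29%, 3.21%, 3.02% and 3.36% with simvastatin and 3.36%, 3.31%, 3.16% and 3.00% with irinotecan. With the combination they were 3.33%, 3.24%, 3.13% and 3.23%, against 3.27%, 2.93%, 3.07% and 3.12% with DMSO. All 4 groups overlapped. In bulk RNA a smaller share of cells of one kind and less RNA per cell cannot be told apart, and these shares say nothing of the amount of RNA per cell.

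Few of the 74 genes passed the test in any comparison, and their changes were small. Calls are Benjamini-Hochberg adjusted p under 0.05 in edgeR's quasi-likelihood test over 16647 genes. With simvastatin against DMSO 1 of the 74 genes (1.35%) was called, where 6.00% of all genes were, and with irinotecan against DMSO 2 of the 74, where 24.1% of all genes were. With the combination, 2 were called against DMSO (28.1% of all genes), none against irinotecan (5.94%) and 4 (5.41%) against simvastatin (25.6%). In the interaction, which sets the log2 change under both drugs against the added log2 changes under each drug, none was called and 0.0120% of all genes were. DESeq2 called the same number of the 74 genes in each direction in each of these comparisons. At an unadjusted p under 0.05, edgeR gave 6 of 74 with simvastatin, 7 with irinotecan, 7 with the combination against DMSO, 2 for the combination against irinotecan, 14 against simvastatin and none in the interaction. Of all genes tested, 17.3%, 34.1%, 38.3%, 18.6%, 36.3% and 6.01% had such a p in the same order.

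The intervals of the differences were narrow as well. The 95% interval of the log2 fold change lay within 1.25-fold in either direction for 72 of the 74 genes with simvastatin, 73 with irinotecan, 73 with the combination against DMSO and 73 and 72 with the combination against irinotecan and against simvastatin. Of all genes tested, 47.6% to 58.1% had such an interval in these comparisons. The exceptions were RPS29 in all 5 and RPL39 in 2. For RPS29, a small subunit protein of few residues and the gene with the widest interval, the bounds against DMSO ran as low as −0.41 with irinotecan and as high as 0.40 with simvastatin on the log2 scale. The median absolute log2 fold change of the 74 genes was 0.029 to 0.059 in the 5 comparisons of groups, against 0.086 to 0.14 for all genes tested. The selection required a mean of 10 CPM, while the genes tested include genes with lower counts, at which intervals are wider. Genes of matched level were not compared, so whether these differences from all genes are particular to the 74 was not tested.

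**Figure D2:**
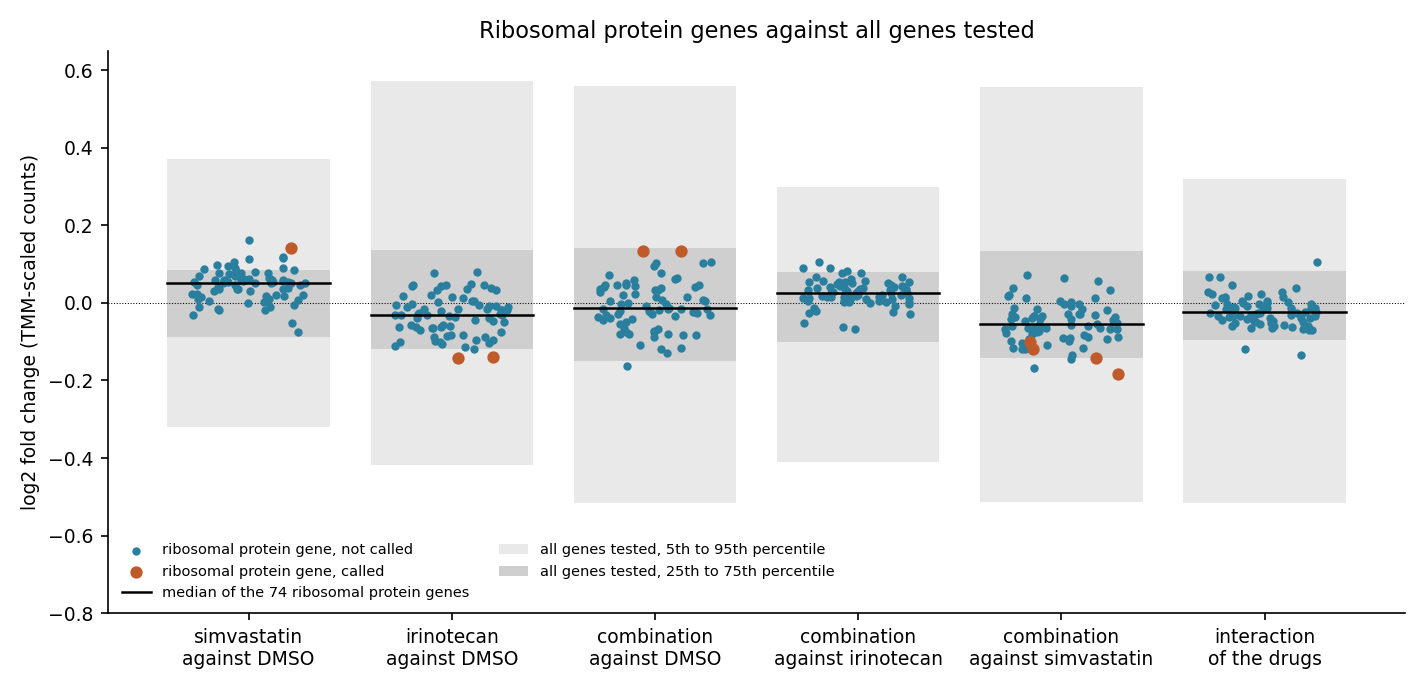
Log2 fold change of each of the 74 ribosomal protein genes (points) in 5 comparisons of groups and in the interaction, with TMM-scaled counts. Grey boxes give the 5th to 95th and the 25th to 75th percentiles of all 16647 genes tested, black lines the median of the 74 genes, and orange points the genes called. The 74 genes lie between −0.18 and 0.16; with library sizes alone the medians of irinotecan and of the combination against DMSO turn from below 0 to 0.044.

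Simvastatin against DMSO asked what the statin did alone. RPL34, a large subunit protein, rose. It stood at 150.5, 154, 140.5 and 157 CPM with simvastatin, against 143, 133, 133 and 136 CPM with DMSO. Of the simvastatin libraries 3 lay above all DMSO libraries, and the fourth lay within them. The log2 fold change was 0.14 ± 0.041 (SE), a fold of 1.10, with an adjusted p of 0.0345 in edgeR (ENSG00000109475, GRCh38 chromosome 4, 108620566 to 108630412, plus strand). No other member was called. RPL39, named here as the highest of all, had a log2 fold change of 0.16 without passing, and RPS15A the lowest at −0.074. Of the 74 log2 fold changes 65 were above 0, with a median of 0.052, beside a median of −0.007 over all genes. The median stayed above 0 in all 25 alternatives (0.020 to 0.081), but not all of these could move it. The stricter threshold leaves it as it is, and it was 0.052 again whichever combination or irinotecan library was left out. Libraries of the groups did not overlap for 0 of the 74 genes and for 10.0% of all genes. The call of RPL34 was lost without replicate 1, 2 or 4 of simvastatin or without replicate 2, 3 or 4 of DMSO, while 2 genes were called without replicate 1 of DMSO and 3 without replicate 3 of simvastatin.

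Irinotecan against DMSO asked the same of the topoisomerase poison, and 2 large subunit genes fell, of which RPL41 is described. RPL41 stood at 376, 377, 355 and 335 CPM with irinotecan, against 415, 365, 399 and 410.1 CPM with DMSO. Every irinotecan library but the first pair lay below all DMSO libraries, and the groups overlapped only through the lowest DMSO library. Its log2 fold change was −0.14 ± 0.041 (SE), a fold of 0.91, at an adjusted p of 0.0111 in edgeR (ENSG00000229117, chromosome 12, 56116586 to 56117943, plus strand).

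The 74 genes as a whole had no direction with irinotecan that held under every scaling. The median log2 fold change was −0.031 with TMM factors, with 55 genes below 0, and 0.044 with library sizes alone, with 57 genes above 0. Libraries of the groups did not overlap for 0 of the 74 genes, against 23.4% of all genes. Without replicate 2 of DMSO, 8 genes were called lower, and without replicate 3 or 4 of irinotecan or 1 or 4 of DMSO only RPL41 was. With library sizes alone RPL41 was not called and 9 genes were called higher. In the 12 libraries with a replicate number RPL41 was not called either, at −0.090 (adjusted p = 0.19 in edgeR), nor with the replicate number as a block (−0.089, adjusted p = 0.0523).

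Both drugs together against DMSO gave 2 calls, both higher, of which RPL12 is described. RPL12, which sits at the base of the stalk, stood at 546, 520.1, 496 and 516 CPM with the combination, against 494, 434, 474 and 492 CPM with DMSO. Its log2 fold change was 0.13 ± 0.047 (SE) at an adjusted p of 0.0332 in edgeR (ENSG00000197958, chromosome 9, 127447674 to 127451405, minus strand). All combination libraries of RPL12 lay above all DMSO libraries. The groups did not overlap for 2 of the 74 genes, where 26.2% of all genes had no overlap. RPL41, called lower with irinotecan, had −0.084 here (adjusted p = 0.126), and RPL34, called higher with simvastatin, had 0.11 (adjusted p = 0.0547).

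As with irinotecan, the sign of the 74 genes together depended on the scaling. The median was −0.014 with TMM factors, with 32 above and 42 below 0, and 0.044 with library sizes alone, with 58 above 0. With library sizes alone 16 genes were called higher and none lower. Without replicate 2 of DMSO none was called higher and 5 lower, without replicate 3 of DMSO 1 higher and 2 lower, and without replicate 1 of DMSO 5 higher. Leaving out replicate 1 of the combination ended both calls, and leaving out its replicate 2 or 4 left 1 called higher.

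The combination against irinotecan asked what simvastatin added. None of the 74 genes was called in edgeR. The log2 fold changes ran from −0.067 for RPS28 to 0.11 for RPL27, both named as the ends of the range, with a median of 0.026 and 63 above 0, against a median of −0.004 over all genes. Without overlap between the groups were 1 of the 74 genes (RPS3A, a small subunit protein that was higher with the combination) and 13.1% of all genes. In the 12 libraries with a replicate number the median was −0.003, so this small shift had no stable sign.

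The combination against simvastatin asked what irinotecan added, and 4 of the 74 genes fell, of which RPL41, RPL3 and RPL10 are described. RPL41 stood at 378, 375, 364 and 382 CPM with the combination, against 423.5, 398, 411 and 422 CPM with simvastatin, with no overlap. Its log2 fold change was −0.14 ± 0.041 (SE) at an adjusted p of 0.00905 in edgeR. RPL3, which shapes the peptidyl transferase centre, stood at 992, 952, 959 and 964 CPM with the combination and at 1068, 1024, 1000 and 1058 CPM with simvastatin. These groups did not overlap either, and the log2 fold change was −0.10 ± 0.037 (SE; ENSG00000100316, chromosome 22, 39312882 to 39320389, minus strand).

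RPL10, a protein that joins the large subunit late in its maturation, stood at 407, 387, 365 and 392 CPM with the combination, against 465, 437, 398.5 and 460.5 CPM with simvastatin. One combination library lay above the lowest simvastatin library, and the log2 fold change of −0.18 ± 0.065 (SE) was the largest of the 74 (ENSG00000147403, chromosome X, 154389955 to 154409168, plus strand). The adjusted p values in edgeR were 0.0405 for RPL3 and 0.0463 for RPL10.

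Over all 74 genes this comparison had a median of −0.055 with 63 below 0, and with library sizes alone a median of −0.003, 39 below 0 and 3 genes called higher with none lower. The groups did not overlap for 6 of the 74 genes (8.11%), 5 lower and 1 higher with the combination, where 25.8% of all genes had no overlap. Only RPL41 was called without replicate 2, 3 or 4 of the combination or without 1, 2 or 4 of simvastatin, 12 genes were called lower without replicate 3 of simvastatin, and 7 without replicate 4 of irinotecan. RPL10 was also not called without replicate 2 or 3 of irinotecan or of DMSO, which enter the shared estimate of the spread. RPL41 was called lower in 24 of 25 alternatives here and in 21 of 25 with irinotecan against DMSO, comparisons that share no library.

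**Figure D3:**
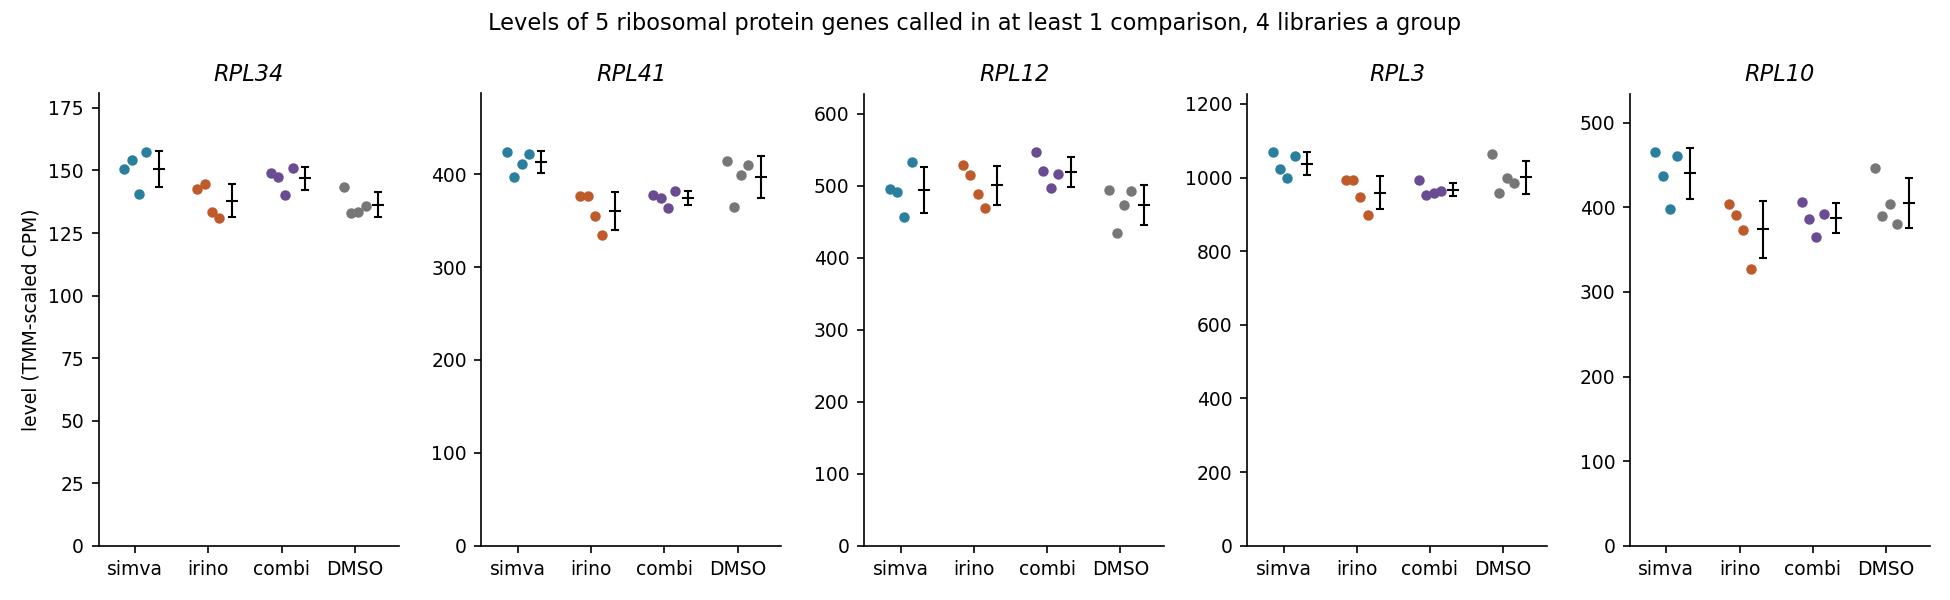
Levels in TMM-scaled CPM of 5 ribosomal protein genes called in at least 1 comparison, with 1 point per library and the mean ± SD (n = 4) in black beside each group (simva, simvastatin; irino, irinotecan; combi, combination). Axes start at 0. The largest log2 fold change among them is that of RPL10, at 388 CPM with the combination and 440.2 CPM with simvastatin.

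In the interaction the 74 log2 values ran from −0.13 for RPL26 to 0.11 for RPL27, with a median of −0.025, and the lowest unadjusted p was 0.114 for RPL27. With 95% intervals of about 0.13 on either side at the median, departures from additivity below that size could not be seen gene by gene.

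Among the proteins at the assembly checkpoint, RPL5 stood at 741 ± 34 CPM with simvastatin, 688 ± 38 with irinotecan, 726 ± 15 with the combination and 704 ± 31 with DMSO (SD, n = 4). Its log2 fold changes against DMSO were 0.074, −0.032 and 0.045 in the order simvastatin, irinotecan and combination, and the 3 intervals lay between −0.11 and 0.16. RPL11, its partner in the particle of 5S ribosomal RNA, stood at 578 ± 31, 562 ± 25 and 572 ± 9.3 CPM in the same order, against 566 ± 21 CPM with DMSO. Its log2 fold changes were 0.031, −0.011 and 0.015, with intervals between −0.089 and 0.11. Neither gene was called against DMSO, with adjusted p of 0.354 or more in edgeR.

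The stalk genes RPLP0, RPLP1 and RPLP2 had log2 fold changes of 0.060, 0.036 and 0.095 with simvastatin against DMSO, −0.019, 0.033 and −0.060 with irinotecan and 0.032, 0.039 and −0.023 with the combination. None was called in edgeR, and the widest interval was that of RPLP2 at −0.23 to 0.26 over the 3 comparisons. Their log2 differences therefore stayed well inside the spread of all genes, whose 5th and 95th percentiles were −0.52 and 0.56 with the combination.

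On the small subunit, RPS6, the substrate of the S6 kinases, had 0.031, −0.030 and 0.014 after simvastatin, irinotecan and the combination against DMSO, with adjusted p of 0.776, 0.641 and 0.830 in edgeR. RPSA, also known as a laminin receptor, had 0.055, −0.009 and 0.005. RPS19, mutated in Diamond-Blackfan anaemia, had 0.045, 0.005 and 0.004. RPS27A, made as a fusion with ubiquitin, had 0.098, 0.013 and 0.045, and RPS3, which also acts in DNA repair, had 0.062, 0.034 and 0.10. RPL3 had 0.052, −0.062 and −0.049 in the same order. None of these was called against DMSO, and the adjusted p nearest to the threshold was 0.140 for RPS3 with the combination.

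Libraries of 1 group differed from each other in the 74 genes together. In replicate 2 of DMSO 73 of the 74 genes lay below their group mean and in replicate 1 of DMSO 73 lay above it. Likewise 71 lay below in replicate 3 of simvastatin, 72 below in replicate 4 of irinotecan, 71 above in replicate 4 of simvastatin and 71 above in replicate 2 of irinotecan. The median deviation of the 74 genes from the group mean ran from −0.097 to 0.073 on the log2 scale over the 16 libraries, while that of all genes tested ran from −0.007 to 0.014. The outermost of these shifts within groups exceeded the medians between groups, which lay between −0.055 and 0.052. These are unlike measures, since a shift belongs to 1 library while each fold change rests on 4 libraries a group. A single library can stray further than a mean of several. Replicate 2 of DMSO, the lowest in the 74 genes, had the highest mitochondrial share of all libraries (4.58%), but replicate 4 of DMSO, with the next highest share (4.40%), had a shift of 0.041, and replicates 1 and 2 of irinotecan, with 3.97% and 4.05%, had 0.068 and 0.057. A relation between this share and the shifts was not tested.

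**Figure D4:**
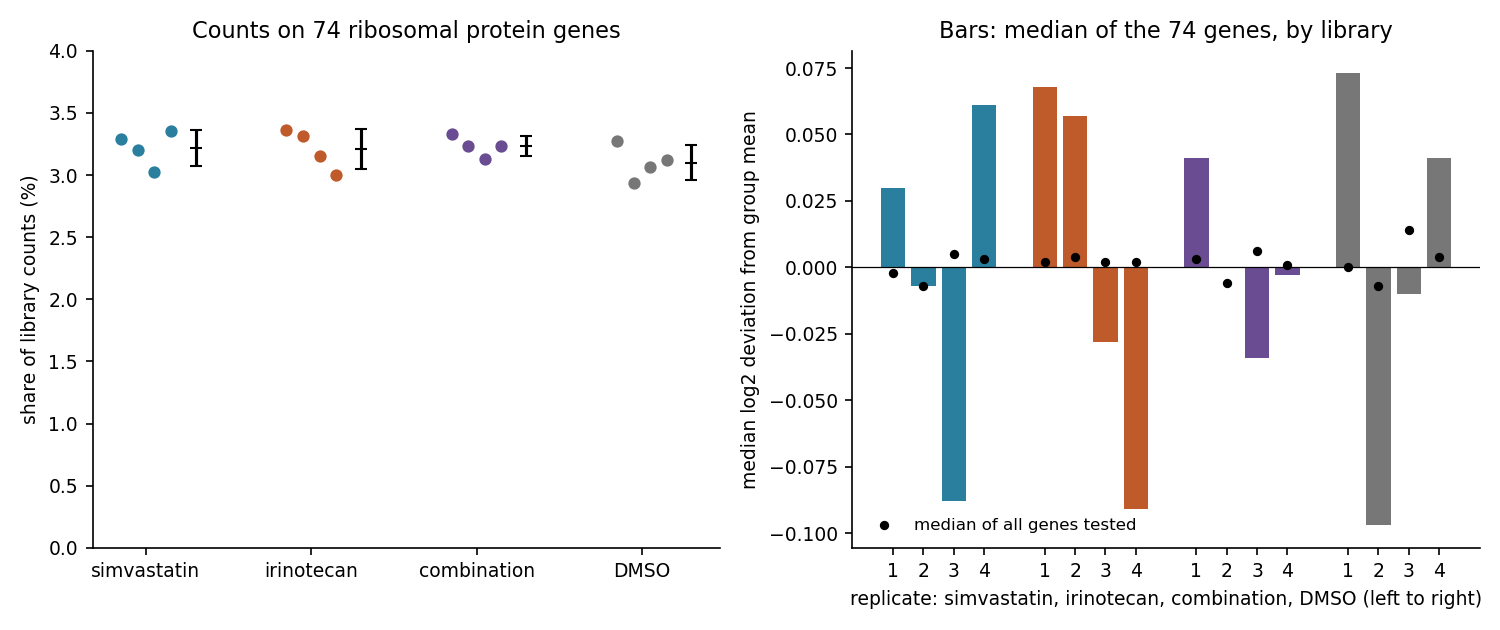
Left, share of each library's counts that fell on the 74 ribosomal protein genes, with 1 point per library and the mean ± SD (n = 4) in black. Right, median log2 deviation of the 74 genes from their group mean in each library (bars, replicates 1 to 4 of simvastatin, irinotecan, combination and DMSO) beside that of all genes tested (black points). The bars run from −0.097 to 0.073 and the points from −0.007 to 0.014.

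Single genes varied less between libraries of a group than genes did in general. The median coefficient of variation of the 74 genes was 4.73% with simvastatin, 5.47% with irinotecan, 2.82% with the combination and 6.01% with DMSO. It was 6.55% to 7.51% for all genes tested, which include genes with lower counts. RPS29 varied most in the 3 drug groups, up to 19.2% with irinotecan, where its libraries stood at 98.0, 91.1, 87.9 and 61.0 CPM. With DMSO it was RPL26, at 16.1%.

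The 74 genes were also divided by features that the selection did not use. Large and small subunit genes had medians of 0.051 and 0.058 with simvastatin, −0.032 and −0.027 with irinotecan and −0.017 and 0.001 with the combination against DMSO. The 27 genes that hold at least 1 snoRNA gene within their bounds, 57 in all, had medians of 0.052, −0.037 and −0.020 in these 3 comparisons, and the other 47 genes 0.052, −0.025 and −0.004. The 44 genes with a pyrimidine run at a start had 0.059, −0.023 and −0.001, and the 15 without 0.022, −0.033 and −0.028. These differences are descriptions with no test, and the medians of all 74 genes with irinotecan and the combination change sign with the scaling as given above. The 74 genes lie on 20 chromosomes. The 12 on chromosome 19 had medians of 0.045, −0.038 and −0.054 in the same 3 comparisons, and the 62 on other chromosomes had 0.054, −0.031 and −0.007. Of the 74, 34 overlap a gene on the other strand and 12 a gene on the same strand in GENCODE 29, and since no strand setting is given, reads of such pairs may be mixed.

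The effect of each drug on the 74 genes could be set beside its effect on top of the other drug, in comparisons that share no library. For simvastatin (against DMSO and as the combination against irinotecan), 60 of the 74 genes were above 0 in both and 6 below 0 in both, with Pearson's r of 0.50 over genes, beside 0.27 for all genes. For irinotecan (against DMSO and as the combination against simvastatin), 53 were below 0 in both and 9 above, with r of 0.73, beside 0.64 for all genes. The genes share libraries within each comparison and move together from library to library, so these are descriptions across genes, and the signs depend on the scaling.

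RPL39L lay closest to the 10 CPM level, a little below it. RPL26 was the lowest inside, at 27.8 CPM, and RPL39L the highest outside, at 8.30 CPM. RPL36A (4.14 CPM), RPL17 (1.60 CPM), RPS10 (1.10 CPM), RPL3L (0.185 CPM) and RPL10L (0.00505 CPM) were also outside. RPL17, RPS10 and RPL36A overlap read-through genes on the same strand (RPL17-C18orf32, RPS10-NUDT3 and RPL36A-HNRNPH2), whose rows held 0 counts in all 16 libraries. Whether reads that fit both genes of such a pair were dropped in counting was not tested, and the levels of these 3 genes are uncertain.

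RPL39L, a paralog of RPL39 that is abundant in testis and in some cancer cells, had a larger log2 fold change than any of the 74 genes in the comparison of the combination with simvastatin. It stood at 9.19, 10.1, 9.44 and 8.63 CPM with the combination, against 6.43, 6.72, 7.60 and 6.77 CPM with simvastatin, without overlap. Its log2 fold change was 0.44 ± 0.091 (SE), a fold of 1.36, at an adjusted p of 0.000498 in edgeR, and it was called in all 25 alternatives (ENSG00000163923, chromosome 3, 187120948 to 187180908, minus strand). Against DMSO, where its libraries stood at 8.46, 7.82, 7.02 and 8.06 CPM, the log2 fold change was 0.25 with the combination (adjusted p = 0.0345 in edgeR, called in 15 of 25 alternatives). It was 0.21 with irinotecan (adjusted p = 0.0853, called in 3 of 25) and −0.19 with simvastatin (adjusted p = 0.291). RPL39 itself was not called in the same comparison of the combination with simvastatin (−0.14, interval −0.35 to 0.079, adjusted p = 0.363).

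Further ribosomal protein genes outside the naming pattern were not called in any comparison. Among the 7 examined were FAU, which encodes RPS30 as a fusion, and the paralogs RPL7L1, RPL22L1, RPL26L1, RPL36AL and RPS27L. Their log2 fold changes over the 5 comparisons lay between −0.11 and 0.13. Of the 7, RPS27L, which is known as a p53 target, had the interval nearest to a change with irinotecan against DMSO (0.11, interval 0.011 to 0.21, adjusted p = 0.101 in edgeR). With library sizes alone 1 of the 7 was called higher with irinotecan, 1 with the combination against DMSO and 1 against simvastatin.

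Pseudogene copies share sequence with 71 of the 74 genes, which had 910 such rows in the table. Rows of copies of all 80 matched genes numbered 951, and 67 of them had enough counts to be tested. Their counts came to 0.591 ± 0.011% of those of the 74 genes with simvastatin, 0.572 ± 0.025% with irinotecan, 0.579 ± 0.002% with the combination and 0.580 ± 0.018% with DMSO (SD, n = 4). The most abundant row, RPL9P9, was at 34.0 CPM over all libraries, beside 181 CPM for RPL9, followed by RPS3AP26 at 11.0 CPM and RPLP0P6 at 10.4 CPM. Of the 67, 1 (1.49%) was called with simvastatin against DMSO, 4 (5.97%) with irinotecan and 4 (5.97%) with the combination. Of all genes tested, 6.00%, 24.1% and 28.1% were called in the same order. RPLP0P2 was called with simvastatin, at 0.703 ± 0.371 CPM against 0.129 ± 0.085 CPM with DMSO (log2 fold change 2.38 ± 0.46, adjusted p = 0.000729 in edgeR), and its level was far below that of RPLP0. How reads that fit several copies were counted is unknown here, so values of these rows and of their parent genes are uncertain to that extent.

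Genes that build, feed and guard ribosomes were set beside the 74, in lists chosen with earlier results of these data known. Their counts stand beside the shares of all genes called, which against DMSO were 6.00% for simvastatin, 24.1% for irinotecan and 28.1% for both drugs together. Of 40 tested factors that assemble the large subunit, 8 rose and none fell with simvastatin against DMSO, with a median of 0.060, and 6 to 10 rose when each library was left out in turn. RRP12, an export and maturation factor, rose to 55.3 ± 5.5 CPM with simvastatin, against 37.8 ± 2.4 CPM with DMSO (log2 fold change 0.55 ± 0.058, adjusted p = 7.35e-08 in edgeR), and PES1 of the PeBoW complex to 114 ± 6.8 CPM, against 92.8 ± 3.8 CPM (0.29 ± 0.044, adjusted p = 3.03e-05). With the combination 13 rose and 2 fell against DMSO (37.5% of the list). Against irinotecan 11 rose and none fell (27.5% of the list, beside 5.94% of all genes). RRP12 stood at 52.9 ± 1.1 CPM with the combination, against 38.1 ± 2.1 CPM with irinotecan (0.47 ± 0.058). DDX21, a nucleolar RNA helicase, and GNL2, a nucleolar GTPase, rose with the combination against DMSO by 0.24 ± 0.038 and 0.25 ± 0.043. The number called lower with the combination against DMSO was 4 without replicate 3 of DMSO and 1 without replicate 3 or 4 of the combination or 4 of DMSO. With irinotecan alone 1 rose and 4 fell, among them NCL (nucleolin), at 1088 ± 22 CPM against 1188 ± 24 CPM with DMSO, but with library sizes alone 8 were called higher and 1 lower. For the combination against simvastatin, 3 rose and 6 fell (22.5% of the list, beside 25.6% of all genes), and 8 and 1 with library sizes alone.

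Of 43 genes of the snoRNPs and the small subunit processome, 5 rose and none fell with simvastatin, 1 rose and 8 fell with irinotecan and 6 rose and 4 fell with the combination against DMSO. These are 11.6%, 20.9% and 23.3% of the list, beside 6.00%, 24.1% and 28.1% of all genes. NOL6 rose in all 5 comparisons of groups and most with the combination, at 146 ± 5.8 CPM against 103 ± 4.9 CPM with DMSO (0.50 ± 0.042, adjusted p = 1.26e-10 in edgeR). KRR1 fell to 97.3 ± 3.1 CPM with the combination, against 114 ± 7.2 CPM with DMSO (−0.23 ± 0.047). The number called higher with simvastatin fell to 1 without replicate 1 or 4 of simvastatin, 2 without replicate 2 of DMSO and 3 without replicate 2 of simvastatin or replicate 1, 2 or 4 of the combination. The number called lower with irinotecan fell to 2 without its replicate 1, 3 without replicate 1 of DMSO and 4 without replicate 4 of DMSO. The split turned with library sizes alone, which gave 5 higher and none lower with irinotecan and 19 higher and 2 lower with the combination.

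RNA polymerase I, which transcribes the ribosomal RNA genes, and its factors made a list of 15. None was called with simvastatin, 2 rose and 1 fell with irinotecan, and 3 rose and 2 fell with the combination against DMSO. With irinotecan this is 20% of the list, beside 24.1% of all genes, and with the combination 33.3%, beside 28.1%. Scaled by library sizes alone, 5 were higher and 1 lower with irinotecan and 5 higher and 2 lower with the combination, and without replicate 3 of irinotecan 1 was higher with irinotecan. RRN3, which readies the polymerase for initiation, rose to 66.0 ± 3.9 CPM with the combination, against 55.0 ± 1.7 CPM with DMSO (0.26 ± 0.047, adjusted p = 5.84e-05 in edgeR). UBTF, the architectural factor of the ribosomal RNA genes, fell to 107 ± 1.6 CPM, against 123 ± 4.3 CPM with DMSO (−0.20 ± 0.041, adjusted p = 0.000348). TAF1B fell with irinotecan to 15.0 ± 0.85 CPM, against 18.4 ± 0.47 CPM with DMSO (−0.30 ± 0.067).

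Translation factors whose mRNAs also carry TOP tracts, and their like, gave 1 call with simvastatin against DMSO, 2 with irinotecan and 2 with the combination, among 17 tested, which is 5.88%, 11.8% and 11.8%. With irinotecan 1 was higher and 1 lower, but 6 were lower without replicate 2 of DMSO, 4 without replicate 2 and 3 without replicate 1 of irinotecan and 2 without replicate 3 of simvastatin, and with library sizes alone 4 were higher and none lower. TPT1 rose to 943 ± 46 CPM with simvastatin, against 843 ± 31 CPM with DMSO (0.16 ± 0.037, adjusted p = 0.00448 in edgeR). PABPC1, the poly(A) binding protein, rose with irinotecan (0.17 ± 0.034) and with the combination (0.20 ± 0.034) against DMSO. NPM1 (nucleophosmin) fell to 929 ± 14 CPM with irinotecan, against 1038 ± 52 CPM with DMSO (−0.16 ± 0.037). EEF1A1, which brings aminoacyl-tRNAs to the ribosome, fell to 4781 ± 75 CPM with the combination, against 5130 ± 139 CPM with simvastatin (−0.10 ± 0.034, adjusted p = 0.0283), but with library sizes alone no gene of the list was called lower there.

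Among 26 initiation factors, 3 rose with simvastatin, 4 fell with irinotecan and 3 rose and 3 fell with the combination against DMSO, which is 11.5%, 15.4% and 23.1% of the list. EIF2S2 and EIF2S3, subunits of the factor that delivers the initiator tRNA, rose with simvastatin by 0.22 ± 0.042 and 0.17 ± 0.033. EIF4E, which binds the mRNA cap, fell to 46.3 ± 0.88 CPM with irinotecan, against 54.2 ± 2.0 CPM with DMSO (−0.23 ± 0.043, adjusted p = 0.000141 in edgeR). EIF1 fell to 541 ± 29 CPM with irinotecan, against 623 ± 22 CPM with DMSO, and rose to 706 ± 33 CPM with simvastatin. Scaling by library sizes alone gave 3 higher and 2 lower with irinotecan and 10 higher and none lower with the combination. Without replicate 2 of DMSO 1 was higher with the combination.

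Of 10 kinases and binding proteins that act on ribosomal proteins or TOP mRNAs, 1 rose with simvastatin against DMSO, 3 with irinotecan and 4 with the combination, and none fell. With irinotecan 1 was called lower without replicate 3 or 4 of irinotecan, 1 of the combination, 3 of simvastatin or 2 of DMSO, and with simvastatin 1 without its replicate 3. EIF4EBP1, the mTORC1 substrate that holds EIF4E, rose to 90.03 ± 8.0 CPM with simvastatin, against 63.39 ± 6.1 CPM with DMSO (0.50 ± 0.060, adjusted p = 2.23e-06 in edgeR). RPS6KA1, an RSK kinase, rose to 63.1 ± 3.8 CPM with irinotecan, against 45.8 ± 2.0 CPM with DMSO (0.47 ± 0.049, adjusted p = 1.08e-08), and PDCD4, an inhibitor of translation initiation, to 16.9 ± 0.79 CPM, against 13.5 ± 0.94 CPM (0.33 ± 0.069).

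In the list of 8 genes around the checkpoint of the 5S particle and p53, CDKN1A, the gene of the cell cycle inhibitor p21, rose to 60.7 ± 2.3 CPM with simvastatin, 77.5 ± 1.0 CPM with irinotecan and 88.7 ± 4.7 CPM with the combination, against 51.5 ± 1.2 CPM with DMSO. RPF2, which loads the 5S particle onto the large subunit, rose to 45.3 ± 1.7 CPM with the combination, against 37.6 ± 1.1 CPM with DMSO (0.27 ± 0.050, adjusted p = 9.92e-05 in edgeR), and MDM4 fell to 42.6 ± 2.0 CPM, against 54.6 ± 5.2 CPM (−0.36 ± 0.062). These were the 3 calls of the list in that comparison, and RPF2 and RRS1 also stand in the list of large subunit assembly. U-251 MG is a p53-mutant line, and whether p53 took part in these changes was not tested.

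Ribosome quality control gave 3 calls of 14 with simvastatin, all higher, 1 higher and 2 lower with irinotecan, and 5 higher with the combination against DMSO, which is 21.4%, 21.4% and 35.7% of the list. The last count was 2 without replicate 1 or 4 of the combination or 2 of DMSO, and 3 without replicate 3 of the combination or 1 or 4 of DMSO. With irinotecan 2 were higher and 1 lower with library sizes alone. PELO, which rescues stalled ribosomes, rose to 45.5 ± 0.42 CPM with simvastatin, against 39.4 ± 0.69 CPM with DMSO (0.21 ± 0.044, adjusted p = 0.00262 in edgeR). ANKZF1, which frees nascent chains, rose with simvastatin (0.30 ± 0.066) and fell with irinotecan (−0.32 ± 0.067) against DMSO.

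The mitochondrial ribosome is built from a separate set of nuclear genes, of which 77 were tested. With simvastatin 1 rose and none fell, with irinotecan 2 rose and 10 fell and with the combination 2 rose and 5 fell against DMSO, which is 1.30%, 15.6% and 9.09% of the list beside 6.00%, 24.1% and 28.1% of all genes. MRPL36 fell to 30.6 ± 1.3 CPM with irinotecan, against 38.1 ± 1.4 CPM with DMSO (−0.32 ± 0.052, adjusted p = 2.6e-05 in edgeR), and MRPL42 rose to 84.4 ± 0.38 CPM, against 74.1 ± 3.6 CPM (0.19 ± 0.042). Scaled by library sizes alone, 9 were called higher and 2 lower with irinotecan, and 9 higher and 3 lower with the combination. Without replicate 1 or 4 of DMSO 6 were called lower with irinotecan, and with the combination 8 were called lower without replicate 4 of irinotecan and 3 without replicate 1 of DMSO.

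**Figure D5:**
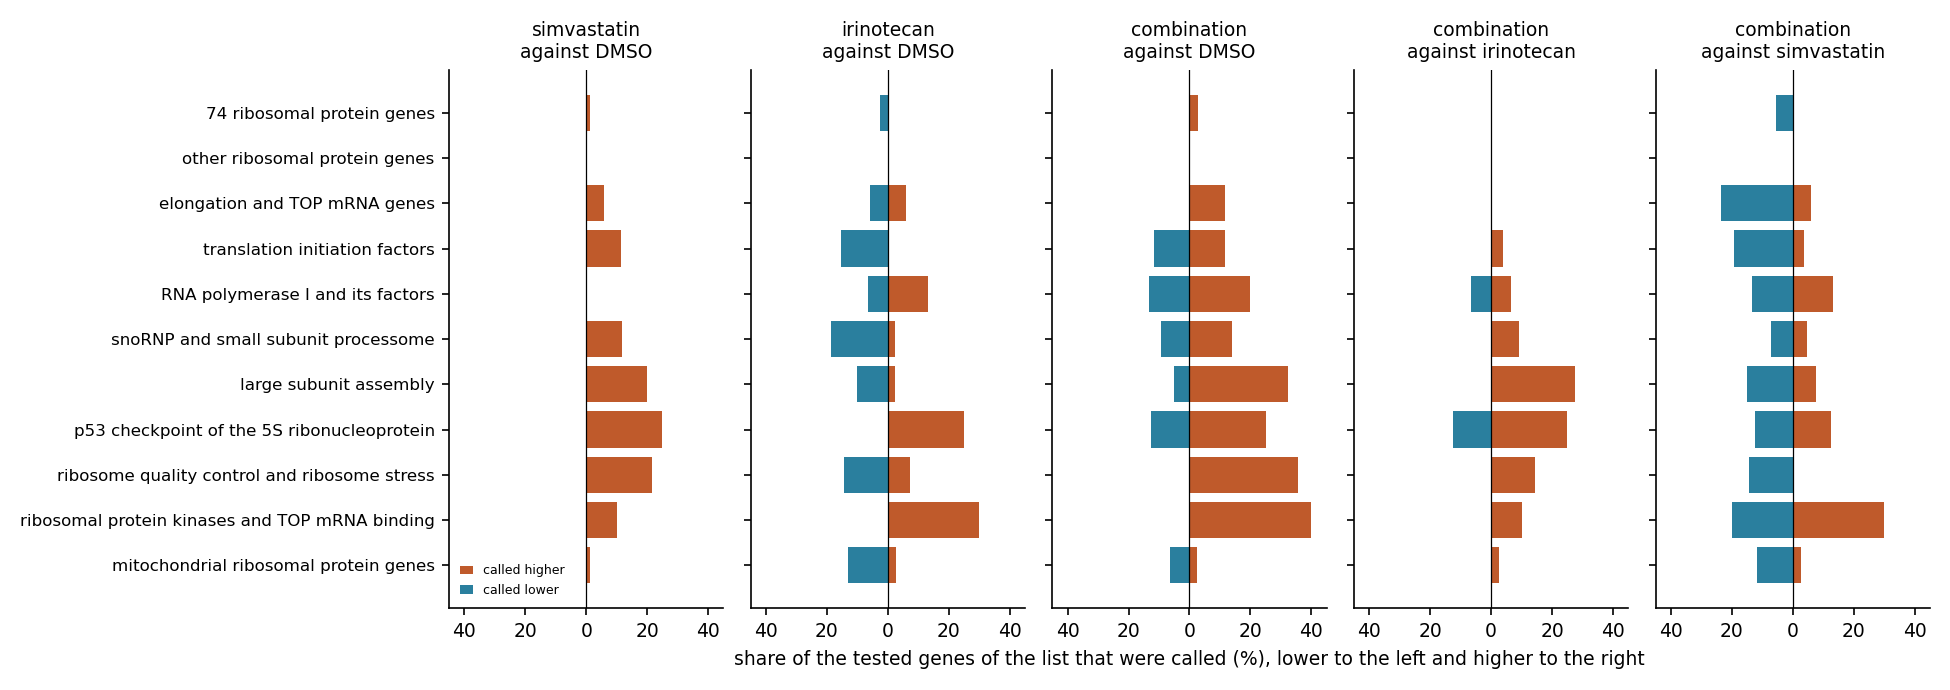
Share of tested genes called higher (right of 0, orange) and lower (left of 0, blue) in edgeR, for the 74 ribosomal protein genes and 10 lists of genes that build, feed or guard ribosomes, in 5 comparisons, with TMM factors. With irinotecan and with the combination the split of higher against lower calls changes under library sizes alone. The 74 genes reach 5.41% at most, and large subunit assembly, higher and lower together, reaches 37.5% with the combination against DMSO.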

How the data were processed

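The deposited table holds whole-number counts per Ensembl gene, which the authors had not normalised, for 4 libraries in each of 4 groups. Per the submitters' processing notes, FastQC, STAR 2.7.1, GRCh38 and DESeq2 were used. How reads were counted, against which annotation and with what strand setting is not given in the sources used here. No column was left out. Counts were tested in R 4.3.3 with edgeR 4.0.16 (limma 3.58.1): filterByExpr (minimum count 10, minimum total 15) left 16647 genes, TMM factors scaled the libraries, and robust quasi-likelihood fits over all 16 libraries, 1 term per group, gave two-sided F tests with Benjamini-Hochberg adjustment over all genes. The common coefficient of variation was 5.25%. Intervals at 95% come from the standard error. Levels of tested genes are TMM-scaled CPM, while levels for the 10 CPM rule, markers, shares and pseudogene rows use library totals. Positions and coding lengths (principal transcript, without the stop codon) come from GENCODE 29, which held 57980 of 58243 IDs.

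The members and lists were chosen with earlier results of these data known. Named were, per comparison, up to 4 called members in each direction, a fixed set (RPL5, RPL11, RPLP0, RPLP1, RPLP2, RPSA, RPS6, RPS27A, RPS3, RPL3, RPS19, RPL39L), the 5 highest and 5 lowest per coding length, those around 10 CPM, and up to 4 called genes with the smallest p per list. Genes at the ends of ranges (RPL27, RPL39, RPS28, RPS29) and RPL9 were named after their values were seen. Some items, called genes among them, enter the counts and are not reported here by name. Alternatives were median-ratio factors, library sizes alone, TMM factors without these genes, no filter, DESeq2 1.42.0, adjusted p under 0.01, the compared groups only, the 12 numbered libraries (without the unnumbered library of each group) with and without a replicate block, and leaving out each library. A library outside a comparison enters it only through the filter, the scaling and the shared spread, so leaving it out is a weak check of that comparison. On simulated data for simvastatin against DMSO with 200 of 16647 genes changed, edgeR recovered 51.0% of genes changed by 0.3 on the log2 scale and 74.0% at 0.5, with 3.70% of calls false. Between libraries of a group, chi-squared over its degrees of freedom was 2.58 to 14.7 where a value was obtained. No library of those pairs was taken as deposited again. Among replicates 1, 2 and 3 of simvastatin no value was obtained, so this check does not cover pairs of these libraries. Figures used Python 3.11.15 and matplotlib 3.10.9.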

Additional observations from a re-analysis of the deposited data

Results flagged for a closer look

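One of 80 groups of 4 libraries examined among the named genes and the summed share held a library far from the others. RPL11 stood at 532.5 CPM in replicate 3 of simvastatin, while the other simvastatin libraries stood at 593.1 to 594.1 CPM. Chance flags about 1 in 20 such groups, and in this library 71 of the 74 genes lay below their group mean.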

How the results depend on the processing

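Counts of called genes are given as higher and lower. At an adjusted p under 0.01, simvastatin gave 0 higher, irinotecan 0 lower, the combination 0 higher against DMSO and 1 lower against simvastatin. With library sizes alone there were 9 higher and 0 lower with irinotecan, 16 higher with the combination against DMSO, and 3 higher and 0 lower against simvastatin. Without the filter, 2 were lower with the combination against DMSO and 9 lower against simvastatin. With the compared groups only, simvastatin gave 0 higher and the combination against simvastatin 11 lower. The 12 numbered libraries without a block gave 0 higher with simvastatin, 0 lower with irinotecan, 1 higher with the combination against DMSO and 2 lower against simvastatin. With the replicate block the same libraries gave 2 higher with simvastatin, 3 higher and 0 lower with irinotecan, 4 higher and 3 lower with the combination against DMSO, and 1 higher and 8 lower against simvastatin. The numbers were not taken as pairs because nothing in the labels says that they pair libraries. Of 18 same-numbered pairs of libraries, 4 correlated over 0.1 in their deviations, and 8 of 12 libraries correlated best with their own number. The mean correlation was 0.061 for same-numbered pairs and −0.030 for the others. With the block, calls over all genes went from 513 to 1136 with simvastatin against DMSO and from 1 to 190 in the interaction. A pairing by number therefore remains possible.

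Leaving out each library in turn gave 0 to 3 higher with simvastatin, 1 to 8 lower with irinotecan, 0 to 5 higher and 0 to 5 lower with the combination against DMSO, and 1 to 12 lower against simvastatin, while the other counts stayed at 0. The mean summed share without 1 library was 3.17% to 3.28% with simvastatin, 3.16% to 3.28% with irinotecan, 3.20% to 3.27% with the combination and 3.04% to 3.16% with DMSO. Without mitochondrially encoded genes in the total it was 3.335% with the combination. The cause of these changes was not tested. TMM factors ran from 0.971 to 0.987 without irinotecan and from 1.01 to 1.03 with it, the step that library sizes alone leaves out. Median-ratio factors and DESeq2 kept each of these counts within 1.5 times. Of the log2 fold changes of named genes under an alternative, 4322 kept their side of the threshold, 391 fell short of it, 6 newly passed it and 29 uncalled values moved by more than a standard error, and no called value changed sign. At this spread, changes under about 0.1 on the log2 scale are not resolved for single genes.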
